A study of Mus musculus with 2 samples.

Results

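Lyz1 and Lyz2 encode c-type lysozymes of the mouse, and their RNA was followed in single cells of lung organoids. They were taken by gene symbol and are 2 of the 27998 genes in the count tables, each with 1 row in both tables. Organoids were grown from alveolar type 2 (AT2) cells of C57BL/6 Sftpc-CreERT2;R26RTomato mice (also given as SPC-CreERT2;R26RTomato) that had received tamoxifen, so that Cre driven by the surfactant protein C promoter marked AT2 cells with the Tomato reporter. The AT2 cells were cultured with lung stromal cells, for 2 weeks per the labels, although the study's own legend gives a later day. One culture condition received PBS (control) and the other received IL-1β, an inflammatory cytokine, and each gave 1 droplet library. The comparison asks how IL-1β altered AT2-derived cells. The labels do not give the dose of IL-1β or how many mice or wells went into a library, and both libraries hold stromal cells as well as epithelial cells.

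Lysozyme is a small secreted enzyme that cuts the peptidoglycan of bacterial cell walls. The mouse carries a duplicated gene: Lyz2, the M or macrophage form, is known from macrophages, neutrophils and AT2 cells, where the enzyme is stored with surfactant in lamellar bodies, whereas Lyz1, the P form, is best known from Paneth cells of the small intestine. AT2 cells make surfactant and can give rise to the flat AT1 cells that carry out gas exchange. Damage-associated transient progenitors (DATPs) are an intermediate state between them.

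The genes lie next to each other on the minus strand of chromosome 10 (GRCm38, GENCODE M21). Lyz1 (ENSMUSG00000069515) spans 117287797 to 117292868 and Lyz2 (ENSMUSG00000069516) spans 117277331 to 117282321, with 5475 bases between them and 4 exons each. Their RNAs are so alike that the sequences show how a read can be told apart. Of the 447 bases of each coding sequence 22 differed (95.1% identity). The 300-base stretch with the most differences, coding positions 1 to 300 of the GENCODE transcripts, follows 5′ to 3′ with its 20 differing bases in capitals.
Lyz1 coding: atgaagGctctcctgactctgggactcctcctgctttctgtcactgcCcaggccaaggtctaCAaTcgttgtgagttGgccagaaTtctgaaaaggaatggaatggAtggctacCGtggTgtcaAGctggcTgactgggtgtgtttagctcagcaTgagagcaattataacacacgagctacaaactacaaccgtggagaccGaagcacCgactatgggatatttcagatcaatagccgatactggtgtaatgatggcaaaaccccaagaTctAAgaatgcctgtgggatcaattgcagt
Lyz2 coding: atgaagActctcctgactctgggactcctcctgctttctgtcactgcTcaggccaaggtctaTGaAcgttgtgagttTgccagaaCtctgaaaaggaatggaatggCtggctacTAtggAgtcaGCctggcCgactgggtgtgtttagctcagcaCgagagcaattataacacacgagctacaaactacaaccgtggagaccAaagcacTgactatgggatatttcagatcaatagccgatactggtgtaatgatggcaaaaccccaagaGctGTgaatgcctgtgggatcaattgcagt
Over the whole transcripts, 51 of 1264 aligned positions were substituted and 2 were gaps. The 3′ untranslated parts, 786 bases in Lyz1 and 790 in Lyz2, lie in exon 4. Of the 98-base windows in the last 500 bases of the Lyz1 transcript, where 3′ reads fall, 7 of 403 were also found whole in Lyz2. At a window of 75 bases the count was 30 of 426. Most reads from the 3′ end therefore hold at least 1 base that separates the genes, and Cell Ranger counts only reads that map to 1 place.

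The promoters are shown because the neighbouring genes differed by 2 orders of magnitude in RNA while sharing the sequence next to their start. The RefSeq sequences (GRCm38.p6, minus strand) run from 250 bases before to 50 bases after the start, Lyz1 at chr10:117292819-117293118 and Lyz2 at chr10:117282223-117282522. Capitals mark bases with no identical partner when the promoters are aligned with gaps.
Lyz1 promoter: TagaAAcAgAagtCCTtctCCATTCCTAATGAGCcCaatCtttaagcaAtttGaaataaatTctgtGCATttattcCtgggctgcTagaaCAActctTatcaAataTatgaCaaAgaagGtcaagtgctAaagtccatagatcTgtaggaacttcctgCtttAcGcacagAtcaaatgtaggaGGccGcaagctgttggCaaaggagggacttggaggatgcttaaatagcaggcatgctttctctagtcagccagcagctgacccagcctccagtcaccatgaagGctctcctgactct
Lyz2 promoter: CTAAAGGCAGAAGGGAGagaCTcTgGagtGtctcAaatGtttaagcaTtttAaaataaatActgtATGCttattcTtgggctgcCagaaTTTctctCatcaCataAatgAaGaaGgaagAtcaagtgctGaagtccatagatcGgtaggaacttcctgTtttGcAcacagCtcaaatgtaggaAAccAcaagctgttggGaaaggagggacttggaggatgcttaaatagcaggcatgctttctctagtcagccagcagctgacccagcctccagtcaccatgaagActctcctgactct
Of the last 100 bases, 1 differed, and 9 of the last 150 did. Of Lyz1 bases 51 to 150, 19 had no identical partner in Lyz2, and of the first 50 bases 26 had none, where the alignment is poor. CAAGTG, the core bound by the lung factor NKX2-1, was found once in each promoter on either strand and in 13.6% of all 32851 RefSeq promoters. AGGAAG, a core of PU.1-type ETS factors, was found once in Lyz1 and at 2 places in Lyz2, and in 35.4% of all promoters. TTGCNNAA, a C/EBP-type sequence, was found once in Lyz1 and not in Lyz2, and in 10.8% of all promoters. No match of one motif shared a base with a match of another in either promoter, and a match describes letters only.

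The control table held 2101 cell barcodes with 33965848 unique molecular identifiers (UMIs, each standing for 1 captured RNA molecule; median 14613 per barcode), and the IL-1β table held 3066 with 41220175 (median 11496.5). After filtering, 1285 control and 2583 IL-1β cells were epithelial and 796 and 475 were stromal-like. The 2 tables shared 11 barcode sequences. Of the 11 epithelial clusters, 10 drew at least 95% of their cells from 1 library, so library and cell state cannot be told apart. Clusters were found without Lyz1, Lyz2 and the defense and lysosome genes used below, and were named from marker genes. The defense genes Sftpa1 and Sftpd were also AT2 markers, so they took part in the naming. AT2-like cells of the control library were cluster E0 (876 of 882 cells). Those of the IL-1β library were clusters E1 and E3 (799 and 436 of 1235 cells). Of 11 AT2 markers, 10 were higher in all AT2-like cells together than in the other epithelial cells. By cluster, the mean log2 fold of the AT2 markers over all other epithelial cells was 0.664 in E0, but only 0.0453 in E1 and 0.00733 in E3. It was -0.133 in the unnamed cluster E2. E6 was AT1-like (control), E5 DATP-like (IL-1β), E8 airway secretory-like (IL-1β, led by Ccl20 and Pglyrp1) and E9 cycling-like (control). E2 (IL-1β, led by Slc26a4, Cxcl5 and Cd14), E4 (IL-1β, led by AW112010, Serpinb9 and Cldn4, with the AT1 markers Hopx and Akap5), E7 (control) and E10 (IL-1β, led by mitochondrial genes) stayed unnamed and are given by number.

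Lyz2 was the second most abundant RNA of AT2-like cells in both libraries, after Sftpc, the surfactant protein C gene. It made up 2.39% of their UMIs in control and 4.56% in IL-1β organoids, or 23865 and 45637 CPM. These levels are UMIs summed over cells per 1000000 UMIs (CPM), and a 3′ UMI is counted once per molecule, so the scale holds no length term. The level was 1.91-fold higher in IL-1β (95% interval 1.90 to 1.92). All intervals given are exact and hold the error of counting alone. They leave out the spread between cells and clusters, for Lyz2 as well as for Lyz1. The Lyz2 ratios of E1 and E3 over E0, 1.82 and 2.11, both lay outside 1.90 to 1.92. Each condition is a single library, so no test was possible. Of the 9773 genes with at least 100 UMIs in AT2-like cells, 12.7% were at least 1.5-fold higher in IL-1β and 8.01% were at least 1.5-fold lower, with a median log2 ratio of 0.05. Sftpc was lower in IL-1β, at 76468 against 99684 CPM (ratio 0.767).

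Lyz1 was detected in the same cells at about 2 orders of magnitude lower levels. It ranked 588th in control and 445th in IL-1β AT2-like cells, with 192 (184.7 to 199.9) and 275 (266.6 to 283.3) CPM. The ratio was 1.43 (1.36 to 1.504). These Lyz1 intervals treat UMIs as independent of the cell they came from. Most Lyz1 UMIs came from few cells (given below), so the intervals are too narrow to place the ratio against 1.5-fold. In all, AT2-like cells held 124.2 Lyz2 UMIs for each Lyz1 UMI in control and 166.0 in IL-1β organoids.

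The size of the Lyz2 difference varied with which IL-1β cells were set against the control. E3 stood highest, at 50349 CPM, followed by E1 at 43469, and both lay above E0 at 23845 (ratios 2.11 and 1.82). E2, the unnamed IL-1β cluster with high Sftpd and Cxcl5, lay below E0 at 17791 (ratio 0.746, interval 0.741 to 0.751). When E2 was counted with the AT2-like cells, the Lyz2 ratio was 1.56 and the Lyz1 ratio 1.09. Over all epithelial cells the ratios were 1.57 and 1.14.

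**Figure D1:**
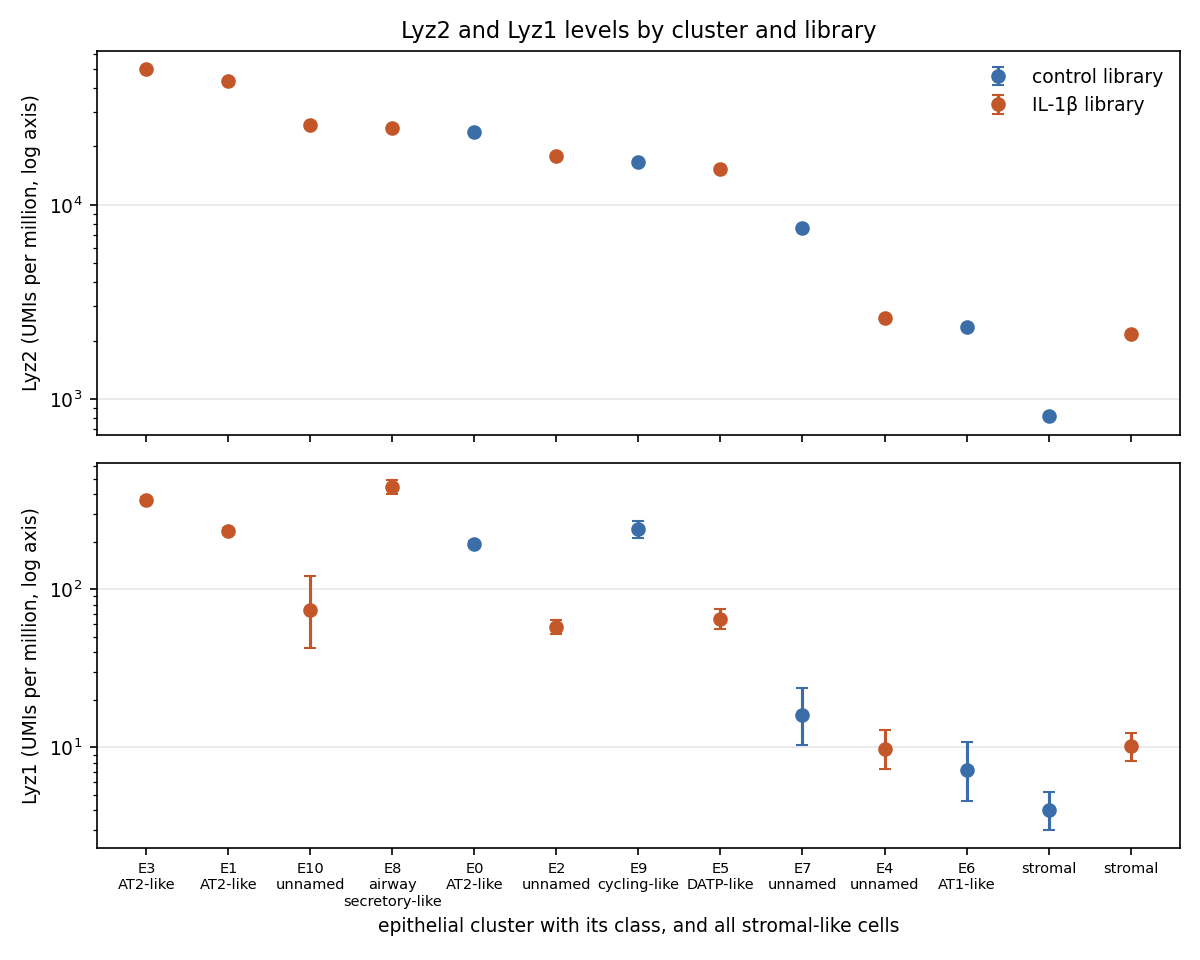
Levels of Lyz2 (top) and Lyz1 (bottom) in CPM on log axes, for each epithelial cluster of at least 20 cells and for all stromal-like cells of each library. Points are sums over cells and bars are exact 95% Poisson intervals; clusters are ordered by Lyz2, from 50349 in E3 to 2359 in E6, and E8 and E9 stand higher in the order for Lyz1 than for Lyz2.

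Single cells of E3 and E1 stood above those of E0 at equal depth too. Every cell was thinned to 4500 UMIs at random, and no kept cell was shallower. The median AT2-like cell then held 101 Lyz2 UMIs in control (quartiles 74 and 133) and 194 in IL-1β organoids (145 and 249), so the upper quartile of the control lay below the lower quartile of IL-1β. Without thinning, the lowest, median and highest counts were 7, 303.5 and 1787 in control and 13, 505 and 2946 in IL-1β organoids, and these whole ranges overlapped. Medians after thinning were 217.5 in E3, 182 in E1, 90.5 in E8, 67 in E2 and 49 in E5, so E8 lay below E0 here although its summed level was higher. The DATP-like cluster E5 was broad, with quartiles of 14.25 and 102.5. E7, the unnamed control cluster, was broad too (quartiles 5 and 44, median 17).

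**Figure D2:**
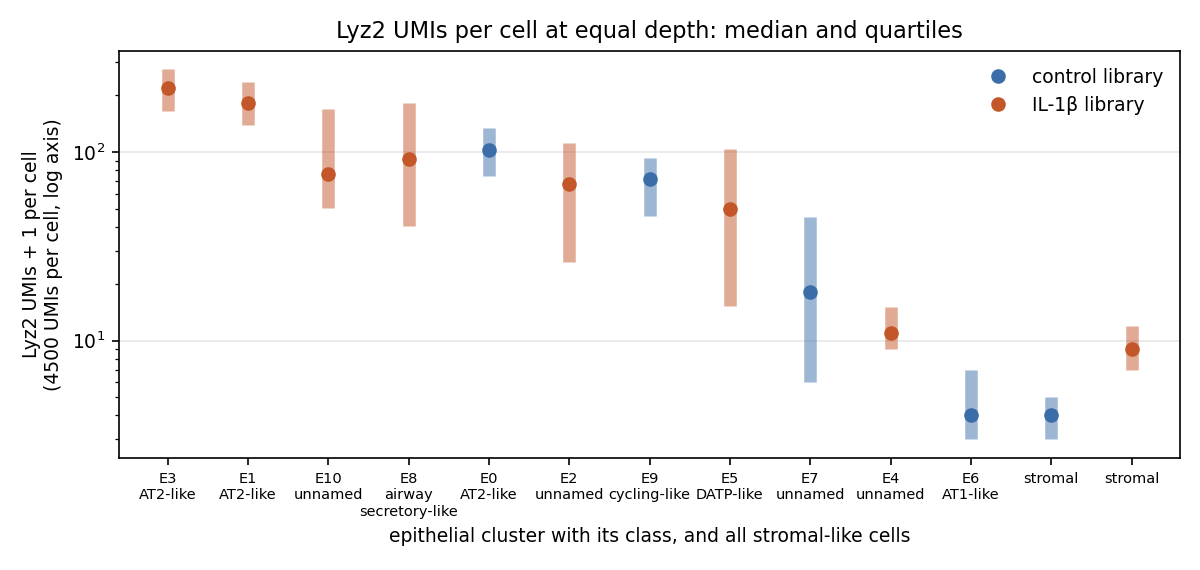
Lyz2 UMIs per cell plus 1 after thinning each cell to 4500 UMIs, on a log axis, by epithelial cluster and for stromal-like cells. Points are medians over cells and bars run from the lower to the upper quartile; the bars of E3 and E1 lie above that of E0, and those of E4 and E6 lie near the stromal-like cells of their library.

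The AT1-like cluster E6 and cluster E4, which had both DATP and AT1 markers among its leading genes, held little lysozyme RNA. The AT1-like cluster E6 had 2359 Lyz2 CPM, which was 9.89% of the AT2-like level of its library, and E4 had 2616, or 5.73% of that of its own. E4 over E6 was 1.11 (1.08 to 1.14) in these summed levels, whereas the median thinned cell held 10 Lyz2 UMIs in E4 and 3 in E6. The DATP-like cluster E5 had 15329 Lyz2 CPM, 33.6% of the AT2-like level, and E7 had 7621, 31.9% of the AT2-like level. Lyz1 was at 7.18 CPM in E6 (23 UMIs) and 9.82 in E4 (51 UMIs), with a ratio of 1.37 whose interval of 0.820 to 2.34 includes 1. E5 had 65.1 CPM, of which 1 cell gave most, and 27.7 without it. Levels in these classes moved with the clustering, the removal of high doublet scores and the total used for CPM. In these alternatives, AT1-like cells had 807 to 3770 Lyz2 and 4.52 to 9.57 Lyz1 CPM. DATP-like cells had 4330 to 19989 and 11.7 to 84.9, the upper ends with a changed total over the same cells. Without the highest-scoring 5% of cells, Lyz2 was at 1134 CPM in AT1-like and 8505 in DATP-like cells.

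These low levels are set beside those of stromal-like cells, which are not a known source of Sftpc. A few of the control ones carried macrophage markers (given further on). Droplets also take up RNA set free from lysed cells. Stromal-like cells of the control library held 3566 Sftpc, 815 Lyz2 and 3.99 Lyz1 CPM. Those of the IL-1β library held 4137, 2152 and 10.2. Lyz2 was thus 2.64-fold higher in IL-1β stromal-like cells (2.58 to 2.70), where 6.15% of 10059 genes were at least 1.5-fold higher and 27.3% lower. At a minimum of 20 UMIs these shares were 8.67% and 30.1% in stromal-like cells. Lyz2 stood at 0.229 UMIs per Sftpc UMI in control stromal-like cells and 0.239 in control AT2-like cells, and at 0.520 and 0.597 in the IL-1β library. Without the 6 control cells that held macrophage markers, the control stromal-like value was 0.210. Relative to AT2-like cells, stromal-like cells held 3.42% and 4.71% of the Lyz2 level, 3.58% and 5.41% of the Sftpc level, and 2.07% (1.55 to 2.72) and 3.69% (2.98 to 4.52) of the Lyz1 level. The part of free RNA in them was not tested, and the stromal-like values are used below as the background level. In E4, Lyz2 (2616) was close to the stromal-like level of its library (2152) and Lyz1 (9.82) was within the interval of the stromal-like level (8.22 to 12.4), so that Lyz1 was not detectable above that level. In E6, the summed Lyz2 level was 2359 against 815 CPM in control stromal-like cells, but the median cell was not higher. Without thinning it held 8 Lyz2 UMIs in E6 and 10 in control stromal-like cells. After thinning it held 3 in both. E6 had an upper tail, with a 95th percentile of 236.2 against 23 UMIs, though the highest cell held 527 against 730.

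**Figure D3:**
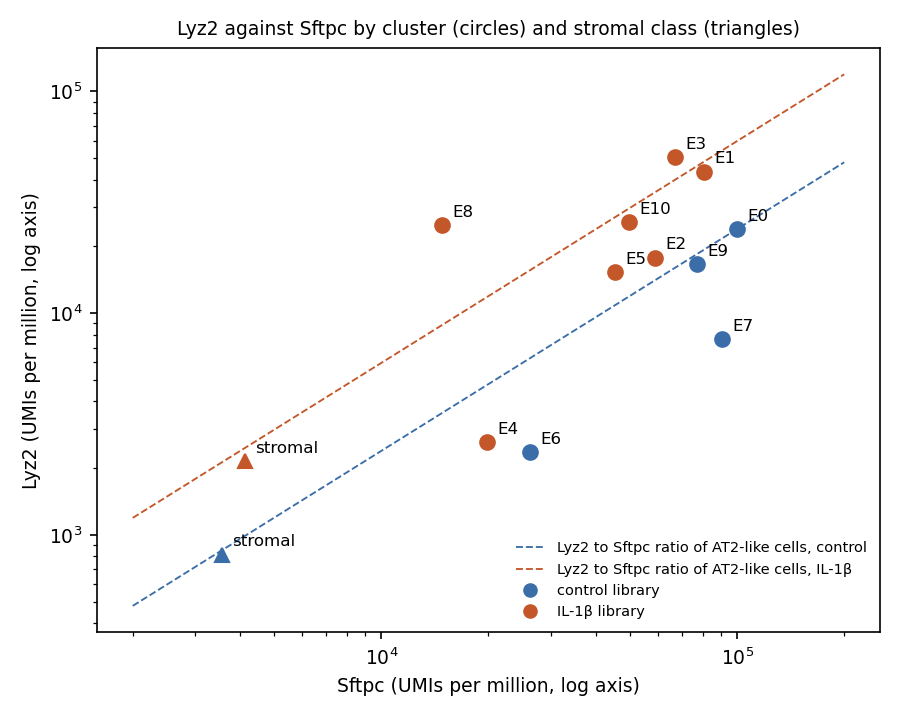
Lyz2 against Sftpc, both in CPM on log axes, for each epithelial cluster (circles) and the stromal-like cells (triangles); dashed lines mark the Lyz2 to Sftpc ratio of AT2-like cells, 0.239 in control and 0.597 in IL-1β organoids. Both triangles lie near the line of their library. E4, E6 and E7 lie furthest below it, E2 and E5 lie below it by less, and E8 lies above it.

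E4, E6 and E7 had less Lyz2 for their Sftpc than AT2-like cells did, at 0.132, 0.0904 and 0.0840 UMIs per Sftpc UMI. In E7, Sftpc was at 91.0% of the AT2-like level and Lyz2 at 31.9%. E2 and E5 were also below the AT2-like ratio of their library (0.597), at 0.303 and 0.337. The airway secretory-like cluster E8 went the other way, with 24907 Lyz2 CPM, 54.6% of the AT2-like level, while Sftpc was at 19.3%, a ratio of 1.69. The cycling-like cluster E9 had 16655, 69.8% of the AT2-like level. No replicate stands behind the order of any of these clusters, and the intervals of neighbours in it that did not overlap speak only for counting error.

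Lyz2 was found in all AT2-like cells after thinning to 4500 UMIs. Lyz1 was found in 24.7% of control (21.9 to 27.7) and 30.8% of IL-1β AT2-like cells (28.2 to 33.4), and in this draw each of these cells also held Lyz2. Without thinning the shares were 52.6% and 58.6%, at median depths of 14175.5 and 11800.0 UMIs per cell. In stromal-like cells, the background, Lyz1 was found in 2.39% and 4.63% of thinned cells (6.16% and 15.2% without thinning, at median depths of 15723.5 and 14849), and Lyz2 in 94.6% and 99.8%, so a Lyz2 UMI in a cell does not mark its expression here. The rank correlation of the genes over thinned AT2-like cells was 0.11 in control and 0.10 in IL-1β organoids (882 and 1235 cells), which is weak in counts this sparse.

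Lyz1 RNA was concentrated in few cells. Of the 1285 control epithelial cells, 742 held no Lyz1 UMI, 505 held 1 to 4, and 22 held 5 to 9. The remaining 16 held between 13 and 237. Of the 2583 IL-1β epithelial cells, 1526 held none, 1004 held 1 to 4, 18 held 5 to 9, and 35 held between 12 and 406. A limit of 10 UMIs, set after these counts were seen, separates these Lyz1-high cells, and the highest count below it was 9 in both libraries.

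Lyz1-high cells made up 15 of 882 AT2-like cells in the control, 1.70% (0.955 to 2.79), and 30 of 1235 in the IL-1β library, 2.43% (1.64 to 3.45), shares whose intervals overlap. In E1 they were 17 of 799 and in E3 13 of 436. Outside the AT2-like cells, 1 was in the cycling-like cluster E9, 3 of 593 in E2, 1 of 262 in E5 and 1 of 56 in E8. None of 225 cells in E6 was Lyz1-high, which by a limit of 3 cells allows a share of up to 1.33% (exact upper limit 1.63%). None of 398 in E4 was (up to 0.754%, exact 0.923%), and none of 111 in E7 (up to 2.70%, exact 3.27%). No stromal-like cell held more than 4 Lyz1 UMIs.

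**Figure D4:**
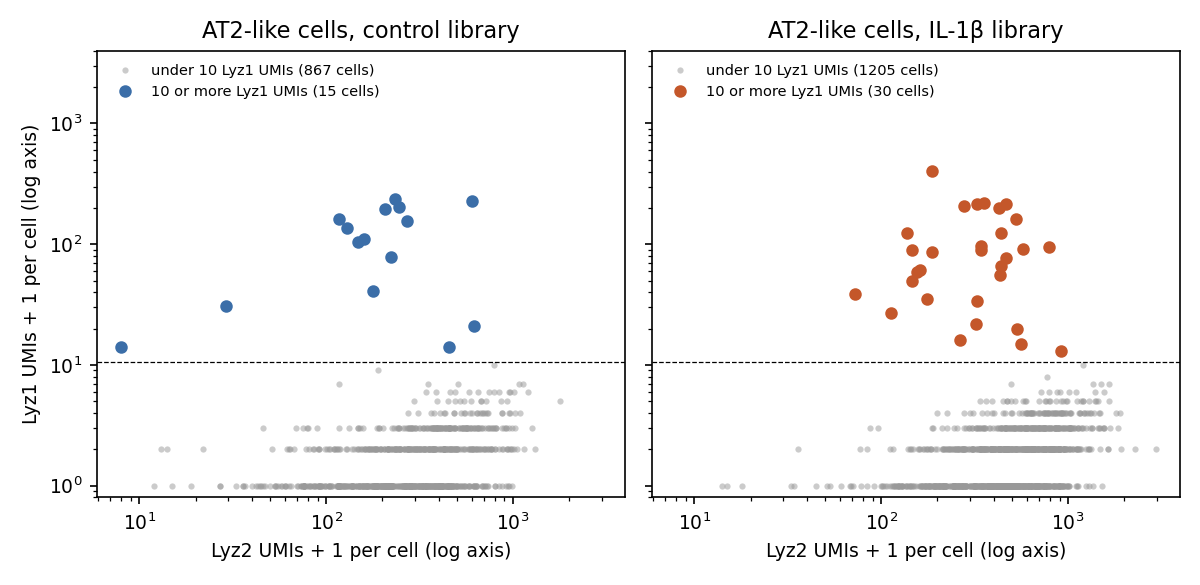
Lyz1 against Lyz2 UMIs per AT2-like cell, each plus 1 and on log axes, in the control (left) and IL-1β library (right); each point is 1 cell, and coloured points are the 15 and 30 cells with 10 or more Lyz1 UMIs, above the dashed line. Most cells hold 0 to 4 Lyz1 UMIs over the whole range of Lyz2.

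Although few, Lyz1-high cells carried most of the Lyz1 RNA, 68.8% of the AT2-like Lyz1 UMIs in control and 71.3% in IL-1β organoids. They were chosen on Lyz1, so its level in them is a description. It was 5968 CPM in control and 8002 in IL-1β organoids, 97.4 and 99.1 times that of the other AT2-like cells. The highest control cell held 237 Lyz1 and 233 Lyz2 UMIs, and the highest IL-1β cell held 406 Lyz1 and 187 Lyz2 UMIs. Lyz1 was more than 50% of the lysozyme UMIs in 5 of the 15 control and 1 of the 30 IL-1β AT2-like cells, with medians of 41.4% and 21.9%.

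Lyz2 was lower in these cells than in the other AT2-like cells of their library. It stood at 12502 against 24122 CPM in control (ratio 0.518, interval 0.501 to 0.536) and at 28406 against 46070 in IL-1β organoids (ratio 0.617, 0.605 to 0.629). Quartiles over the 15 control cells were 7499 and 16706.5 CPM, against 16607 and 29465 in the other cells. In the 30 IL-1β cells they were 19972 and 31962, against 32879 and 55658. The intervals leave this spread between cells out and are too narrow. Lyz1 and Lyz2 together gave 0.764 and 0.789 of the level of the other cells. Sftpc was near that of the other cells, at 0.858 and 1.06. Median depth was 16218 against 14109 UMIs in control and 12990.5 against 11785 in IL-1β organoids. Their median doublet scores were higher than those of the other AT2-like cells, at 0.118 against 0.0904 and 0.143 against 0.118, and the part of doublets was not tested.

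Few other genes differed by 1.5-fold between Lyz1-high and other AT2-like cells in both libraries. Of 1823 genes with at least 20 UMIs observed in, or in proportion expected for, the Lyz1-high cells of each library, 5 (0.274%) were at least 1.5-fold higher in Lyz1-high than in other AT2-like cells in both libraries. Beside Lyz1 itself these were Csnk2a1 (1.64 and 1.76), a subunit of casein kinase 2, Snf8 (1.53 and 1.51), of the ESCRT-II complex, Ube2z (1.76 and 1.70), a ubiquitin-conjugating enzyme, and Zmynd11 (1.59 and 1.62), a chromatin reader, from 21 to 40 UMIs each. In both libraries 4 genes (0.219%) were at least 1.5-fold lower: Lyz2, the interferon-induced Ifi27l2a (0.283 and 0.336), Dpy30 (0.513 and 0.646) and Ube2e1 (0.515 and 0.626). Ifi27l2a RNA was itself concentrated in few cells. These 9 genes were named after their values were seen, and their UMIs outside Lyz1 and Lyz2 were few. Csnk2a1, Ube2z and Zmynd11 had 21 UMIs each in the control Lyz1-high cells. They met the limit there only through this raised count. Ifi27l2a (7 UMIs), Dpy30 and Ube2e1 (12 each) met it there only through their expected count. Their ratios are therefore a description and no sign that they vary with Lyz1.

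Concentration of this degree was rare. The 5% of AT2-like cells highest in a gene held 74.7% of Lyz1 UMIs in control and 74.98% in IL-1β organoids, which ranked 3rd among 2979 and 3542 genes with at least 500 UMIs. The median gene reached 19.6% and 21.2%, and Lyz2 14.0% and 12.7%. At least 50% of the UMIs lay in these cells for 0.302% of control genes and 0.367% of IL-1β genes. The genes above Lyz1 were Scgb1a1, the club cell secretoglobin, and the chemokine gene Cxcl5 in the control, and Meg3, a noncoding RNA, and Retnla, which encodes a secreted resistin-like protein, in the IL-1β library.

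The Lyz1 share of lysozyme UMIs rested on the same cells. In AT2-like cells it was 0.799% (0.768 to 0.831) in control and 0.599% (0.581 to 0.617) in IL-1β organoids. With cells chosen by a gate on Epcam and Sftpc in place of clusters, the shares were 0.616% and 0.583%, a difference of -0.0336 percentage points against -0.200. Without Lyz1-high cells it was 0.253% and 0.175%, and the Lyz1 level was 61.3 and 80.7 CPM (ratio 1.32, 1.203 to 1.44), whereas the Lyz2 ratio stayed at 1.91. The variance of Lyz1 over cells was 102 and 135 times that of a fixed share with binomial counting error when all AT2-like cells were included, and 1.48 and 1.14 times without Lyz1-high cells. Cells were left out by their Lyz1 count, which lowers this variance by construction, so the lower values do not show a fixed share. The intervals of the Lyz1 level, ratio and share over all AT2-like cells leave the spread over cells out and are therefore too narrow. Whether part of the few Lyz1 UMIs in the other cells came from Lyz2 reads or from free RNA was not tested. In stromal-like cells the share was 0.487% and 0.470%. Without its 1 Lyz1-high cell, the Lyz1 level of E8 was 45.6 CPM in place of 444, and that of E9 was 57.7 in place of 239. In E8 the share was 1.75% with and 0.180% without its 1 Lyz1-high cell, and in E9 it was 1.41% and 0.342%.

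**Figure D5:**
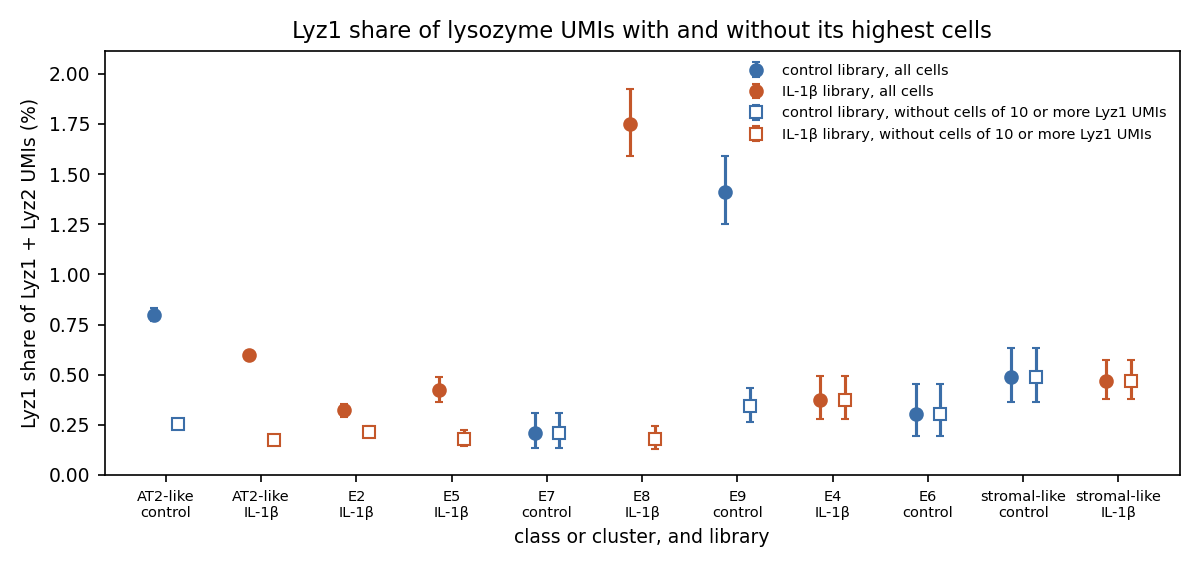
Lyz1 as a percent of Lyz1 plus Lyz2 UMIs by class or cluster and library, with exact 95% binomial intervals; filled circles use all cells and open squares leave out cells with 10 or more Lyz1 UMIs. Without them the AT2-like shares are 0.253% and 0.175% in place of 0.799% and 0.599%, while E4, E6, E7 and stromal-like cells hold no such cell.

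Macrophages, a main source of Lyz2 in the lung, were looked for with 13 other marker genes. In AT2-like cells Adgre1 and C1qc were at 0 in both libraries, C1qa and C1qb had 2 and 5 UMIs in the control and 0 in IL-1β, and no cell held 4 or more of the markers. The summed level of the list was 69.9 and 463.6 CPM, of which Cd14 gave 735 of 909 UMIs in the control and 6422 of 7045 in IL-1β. The other 12 markers summed to 13.4 and 41.0 CPM, of which Cd68 gave 100 of 174 and 616 of 623 UMIs. In the control stromal-like cells, 6 cells held 4 or more markers, and 4 of them held 10 to 12, with 60, 120, 483 and 500 Lyz2 UMIs but at most 3 Lyz1 UMIs. No IL-1β stromal-like cell did. Without these 6 cells the control stromal-like Lyz2 level was 730 CPM, and the ratio was 2.95. Over all stromal-like cells the summed macrophage list was at 87.1 and 174 CPM, with none of the 13 at 0 in the control and 8 at 0 in IL-1β. Cd14 gave 462 of 1179 UMIs in the control and 1477 of 1650 in IL-1β. The sum of the other 12 markers was lower in IL-1β, at 18.3 against 52.9 CPM. Among them Cd68 was not lower, with 134 of 717 UMIs in the control and 161 of 173 in IL-1β. The 6 neutrophil markers summed to 19.7 and 76.2 CPM. Of these S100a8 (200 and 557 UMIs) and Mmp8 (58 and 163) gave most. Csf3r had 4 and 1 UMIs, Cxcr2 had 5 and 0, and S100a9 and Ly6g were at 0 in both libraries. The part of macrophages or neutrophils in the stromal-like difference was not tested. Neutrophil markers gave 1.00 and 5.79 CPM in AT2-like cells, with S100a9 at 0 in both libraries.

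Other lysozyme genes had few UMIs or none. Of the 10 family members listed, Lyz1 and Lyz2 had at least 100 UMIs in AT2-like cells, Spaca3, a sperm protein, had 1 UMI, and the other 7 (Lyg1, Lyg2, Lyzl1, Lyzl4, Lyzl6, Lalba and Spaca5) had 0, which allows at most 3 UMIs in all AT2-like cells of a library. In stromal-like cells Lyzl4 had 1 UMI in the control and 6 in IL-1β, and Lyzl6 had 2 in the control.

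Several secreted defense genes were higher in IL-1β AT2-like cells. Of 20 listed, 9 had at least 100 UMIs in each library, a limit set after seeing the data. Of these 8 were at least 1.5-fold higher, none was lower and 1 lay within. Over all genes 12.7% were higher and 8.01% lower, at a looser limit of 100 UMIs over both libraries. At the looser limit 11 defense genes were measured, of which 9 were higher, 1 was lower and 1 lay within. The median log2 ratio of the defense genes was 1.79 under both limits, against 0.05 over all genes at the looser limit. Scgb3a1 and Chia1 reached 100 UMIs in 1 library alone, so the stricter limit leaves them out. The other 9 stayed below 100 UMIs over both libraries. Lcn2, which binds bacterial siderophores, stood at 3638 CPM in the control and 19984 in IL-1β (5.49-fold, 5.44 to 5.55). Chil1, a chitinase-like protein, was 3.62-fold higher, C3 of complement 3.94-fold, and Pglyrp1, which binds peptidoglycan, the substrate of lysozyme, 11.98-fold, from 42.2 to 506. The collectins Sftpa1 and Sftpd were 1.68-fold and 1.53-fold higher, the protease inhibitor Slpi 1.70-fold, and Retnla 3.46-fold. In both libraries Retnla and C3 were lower in AT2-like than in stromal-like cells, the background used here. In IL-1β Retnla stood at 51.9 against 147 CPM and C3 at 555 against 696. The other members at the stricter limit lay above the stromal-like level in both libraries. Slpi did so only narrowly in IL-1β, at 533 against 488 CPM. The 5% of IL-1β AT2-like cells highest in Retnla held 84.1% of its AT2-like UMIs. The part of free RNA in the Retnla, C3 and Slpi ratios was not tested. Sftpa1 and Sftpd were also among the markers that named the AT2-like cells, so their ratios are not independent of that choice. Scgb3a1, a secretoglobin, had no UMI in the control and 146 in IL-1β. Set against 3 UMIs this is 41.6-fold higher, and the exact lower limit of the ratio is 33.4. Its IL-1β level of 9.61 CPM was close to that of the stromal-like cells of the same library (9.20), the background used here. Chia1, an acidic chitinase, was lower (120 against 13 UMIs, ratio 0.0927), and Wfdc2 lay within (0.968).

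In AT2-like cells most lysosome genes lay within 1.5-fold. Of 19 measured, 4 were higher, 1 was lower and 14 lay within, with a median log2 ratio of 0.39 against 0.05 over all genes. Over all genes 12.7% were higher and 8.01% lower, so 4 and 1 of 19 are near the background. The higher ones were the cathepsins Ctsl (2.11), Ctsb (1.75) and Ctsh (1.65), and the tetraspanin Cd63 (1.503). Npc2, a sterol carrier also secreted with surfactant, was lower (7109 against 4364 CPM, ratio 0.614). In stromal-like cells with at least 100 UMIs over both libraries, 13 of 19 lysosome genes (median log2 ratio 0.79) were at least 1.5-fold higher. So were 10 of 11 defense genes (1.97), against 6.15% of all genes and a median of -0.33 at the same limit. With at least 100 UMIs in each library, 8 of 9 defense genes were higher (1.74). These values share the stromal-like cells described before, and free RNA was not removed from these values.

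Genes most like Lyz2 differed in part between the libraries. Over thinned control AT2-like cells the highest rank correlations with Lyz2 among 607 widely detected genes were those of Sftpa1 (0.43), Sftpc (0.43), Cxcl15 (0.39), Sftpb (0.36) and Lcn2 (0.33). In the IL-1β library they were, among 638 genes, Cxcl15 (0.29), Scp2 (0.29), Sftpa1 (0.28), Trf (0.21) and Cox6c (0.19), and Sftpc stood at 0.09. Sftpa1 and Cxcl15, a chemokine of lung epithelium, were among the 5 in both. All cells of a library share its free RNA and depth. For Lyz1 the highest value in either library was 0.11, that of Lyz2, and is no finding. Across 16 clusters of at least 20 cells, over which class and library both vary, the log2 level of Lyz2 had its highest Pearson correlations with Lrg1 (0.98), Sema4a (0.98), Golm1 (0.98), Sftpa1 (0.97) and Rab27a (0.97). Lyz1 had them with Bcl2a1a (0.98), Bcl2a1b (0.98), Klk13 (0.97), Klk14 (0.96) and Shmt1 (0.94), and its correlation with Lyz2 was 0.91. For both genes these are the highest among 9099 genes searched. In E5, E8 and E9 most of the Lyz1 UMIs came from 1 cell each (57.6, 90.1 and 76.3%), so the Lyz1 values rest in part on single cells.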

How the data were processed

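Single-cell RNA of 1 control and 1 IL-1β organoid library was measured with the 10x 3′ kit. The deposited tables hold raw UMI counts per gene and barcode, produced by the authors in Cell Ranger against GRCm38. The cell cutoffs of the methods had not been applied to them. The submitters' processing notes also name Scanpy 1.3.6. Those cutoffs (over 500 and under 7000 detected genes, over 2000 UMIs) were applied here. Scrublet called 0.0583% of 5142 cells, under 0.5%, which was taken as a failed call, and doublets are still present. Cells were clustered jointly with scanpy 1.11.5 and leidenalg 0.10.2 (50 components, 15 neighbors, resolution 1.0), first to set stromal cells aside and then among epithelial cells. Clusters were named by the highest mean log2 fold of their class markers and stayed unnamed with fewer than 3 markers above the other cells, with mitochondrial genes leading, or with markers of another class leading their top 10 genes.

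Levels are summed UMIs per 1000000 (CPM) with exact 95% Poisson intervals, ratios have exact conditional binomial intervals, and shares have Clopper-Pearson intervals. Thinning drew UMIs without replacement. Limits for counts of 0 rest on 3 counts. Members, gene lists and tests were chosen with earlier results of these data known. Named genes were the 5 most correlated with each lysozyme by cells and by clusters, list members past 1.5-fold, and markers. DATP-like cells and all but 2 AT1-like cells came from 1 library, so no ratio was made within those classes. The methods give the RNA read as 98 cycles and also as 75 bases, so windows of both lengths were used. Promoter sequences came from RefSeq and transcript sequences from GENCODE; no protein sequence was used.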

Additional observations from a re-analysis of the deposited data

How the results depend on the processing

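The log2 Lyz2 ratio (0.94) and log2 Lyz1 ratio (0.52) in AT2-like cells stayed above 0, and the difference in Lyz1 share (IL-1β minus control, -0.20 percentage points) stayed below 0, in every alternative computed. Values that left the counting interval were, for Lyz2, Lyz1 and the share difference in turn: 0.95, 0.65 and -0.145 with no filter on barcodes; 0.96, 0.66 and -0.148 without the highest-scoring 5% of cells; 0.90, 0.33 and -0.288 at a resolution of 2.0; 0.59, 0.29 and -0.132 with the libraries clustered separately; 0.69, 0.61 and -0.0336 with cells chosen by a gate on Epcam and Sftpc; and 0.95, 0.65 and -0.136 with the mean of per-cell levels. Without surfactant, mitochondrial and ribosomal protein genes in the total, Lyz2 gave 0.82 and Lyz1 0.40. Lyz2 alone moved at a resolution of 0.5 (0.97) and with seed 1 (0.93). Louvain clustering moved none of the 3. Of the alternatives chosen after seeing the data, cluster E2 counted as AT2-like gave 0.64 and 0.13, all epithelial cells gave 0.65 and 0.19, and leaving out cells of 10 or more Lyz1 UMIs gave 0.40 for Lyz1 and -0.0785 for the share. The cause of these moves was not tested.

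In AT2-like cells 9773 genes were measured at a minimum of 100 UMIs, 12217 at 20 and 14762 at 1 in each library. Genes at least 1.5-fold higher numbered 1241 (12.7%), 2023 (16.6%) and 2811 (19%) in turn, and lower ones 783 (8.01%), 1357 (11.1%) and 2165 (14.7%). In stromal-like cells 10059, 12841 and 15381 genes were measured. Higher ones numbered 619 (6.15%), 1113 (8.67%) and 1714 (11.1%), and lower ones 2751 (27.3%), 3862 (30.1%) and 4619 (30%). Of 170 other values recomputed, 83 stayed within their interval or 1.5-fold and 87 moved. These are levels, shares and counts, which have no direction that could change. Airway secretory-like cells were too few for a value with no filter on barcodes, without the highest-scoring 5% of cells, and with the libraries clustered separately. Lyz2 ranged from 807 to 3770 CPM in AT1-like cells and from 4330 to 19989 in DATP-like cells. With limits of 20 Lyz1 UMIs or 5% of at least 20 lysozyme UMIs, both chosen after seeing the data, Lyz1-high AT2-like cells numbered 13 under both in the control and 26 and 27 in IL-1β. No paired analysis was possible because each condition has 1 library. Depth limits Lyz1 in single cells, where most counts are 0 to 4 UMIs.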
